A study of Homo sapiens with 15 samples.

Results

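Rinse aid is the liquid that a dishwasher adds to its final rinse so that water drains off the dishes, and surfactants are its working ingredient. The libraries compared here were the 5 labelled Caco-2 with rinse aid at 1:10000 and the 5 labelled with rinse aid at 1:40000, that is 10 of the 15 in the series, and they were chosen by these labels. Caco-2 is a human colorectal carcinoma cell line that takes on features of small-intestinal enterocytes when confluent, and it stands in for an epithelial lining without immune, stromal or mucus-layer cells. Both groups were exposed for 24 h, and no genetic change or second agent is named for either. The remaining 5 libraries came from unexposed cells and served only to sort genes by how far each dilution lay from control. The stronger solution, 1:10000, held 4 times as much rinse aid as the weaker one. The labels do not state whether each of the 5 replicates was its own culture. P-values here therefore reflect the spread among these libraries, which may be technical.

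Polyadenylated RNA was counted per gene. All 10 rinse aid files name the aligner HISAT2 in their headers and list the same 61544 gene rows, whereas the control files name RNA STAR and list 60649 rows, 60601 of them shared. The comparison between the dilutions is therefore free of that difference, and in every comparison with control it cannot be told apart from exposure. Total counts ran from 5489425 to 9555632 at 1:10000 and from 2551839 to 172092447 at 1:40000. A principal component carrying 59.3% of the variance separated the dilutions. A second component, carrying 11.5%, separated replicates 1 and 2 of both dilutions from replicates 3 to 5. The share of counts from mitochondrial ribosomal RNA was 3.11 to 3.83% at 1:10000 and 0.626 to 1.24% at 1:40000. In bulk RNA, fewer cells of a kind and less RNA per cell cannot be told apart.

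Surfactants insert into lipid membranes and can loosen or permeabilise the cell surface. Epithelial cells meet such injury with several programmes. Zinc entering the cytosol activates the factor MTF-1, which switches on metallothioneins, small cysteine-rich proteins that bind metal. Growth factor receptors and calcium entry drive immediate early genes and the wound factors downstream of them. Kinases that phosphorylate the translation factor eIF2 slow protein synthesis while raising ATF4, a factor that induces amino acid transport and synthesis; this is the integrated stress response. Enterocyte differentiation in turn depends on HNF and CDX factors, which maintain lipoprotein secretion and the brush border.

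The epithelial identity of the cells was checked on markers. Of 15 enterocyte-like epithelial markers, 13 passed the filter on low counts, among them CDH1 at 1146 ± 57.6 against 1563 ± 97.5 CPM, KRT8 at 5286 ± 340.1 against 3685 ± 328 CPM and VIL1 at 461 ± 25.0 against 579.8 ± 24.6 CPM, in CPM (counts relative to the library total) scaled by the trimmed mean of M-values (TMM), mean ± SD over 5 libraries. Markers of other cells were mostly below the filter: 1 of 6 squamous, 4 of 6 fibroblast, 2 of 6 leukocyte, 1 of 4 endothelial, 1 of 5 enteroendocrine, 1 of 4 goblet and 0 of 2 Paneth markers were tested. KRT20 was at 0 in all 10 libraries, as were PTPRC, KDR, KRT1, IVL, CHGA, NEUROD1, GCG and the Paneth genes. Summed over the whole list, epithelial markers ran from 12160.5 to 13431 CPM of all counts at 1:10000 and from 11597 to 13022 at 1:40000, a sum that rests on abundant genes. By gene, 8 of the 13 tested epithelial markers were lower at 1:10000 and 2 higher, with a median log2 fold change of -0.45. Fibroblast markers summed to 53.1 to 74.7 CPM at 1:10000 and 107.8 to 135 at 1:40000, leukocyte markers to 7.85 to 11.1 and 15.9 to 24.4, endothelial to 3.04 to 3.83 and 7.71 to 11.7, goblet to 4.92 to 12.2 and 15.5 to 29, and squamous to 12.9 to 18.9 and 6.38 to 10.9. These sums moved between the dilutions in the same libraries as the results below, and their part in them was not tested. COL1A1, a collagen gene, was at 34.2 ± 4.69 against 80.1 ± 18.4 CPM (log2 fold change -1.23 ± 0.15).

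The first question was how many genes differ between the dilutions and by how much. Many genes differed, but mostly by small amounts. Of 12800 tested genes, 7326 (57.2%) were called, meaning an adjusted p under 0.05. Of these, 3470 (27.1% of those tested) were higher at 1:10000 and 3856 (30.1%) were lower. A difference of at least 2-fold was found for 410 genes in the higher direction (3.20%) and 705 in the lower (5.51%). In 5283 genes (41.3%) every library of one dilution lay beyond every library of the other. Log2 fold changes are given throughout as 1:10000 minus 1:40000, so a positive value means more transcript at the stronger dilution, and the median over all tested genes was -0.02. Most are followed by their standard error, and each gene given with a log2 fold change passed the same threshold unless an interval is given with it, in edgeR (quasi-likelihood F-test, p-values adjusted by Benjamini and Hochberg over all tested genes). The intervals are 95% intervals of the log2 fold change, given for genes that did not pass.

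A call does not say that a difference is large, nor does a missing call show like levels, so each gene's 95% interval was set against a margin of 1.5-fold (0.585 in log2). For 4900 genes (38.3%) the gene was called and the interval reached past the margin. A further 2426 genes (19.0%) were called with an interval wholly inside it. In 3784 genes (29.6%) no call was made and the interval lay inside the margin, which bounds the difference for them. The remaining 1690 (13.2%) had neither a call nor a bounded interval, and their median level was 2.44 CPM. The plot of fold change against level shows these 4 sets.

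**Figure D1:**
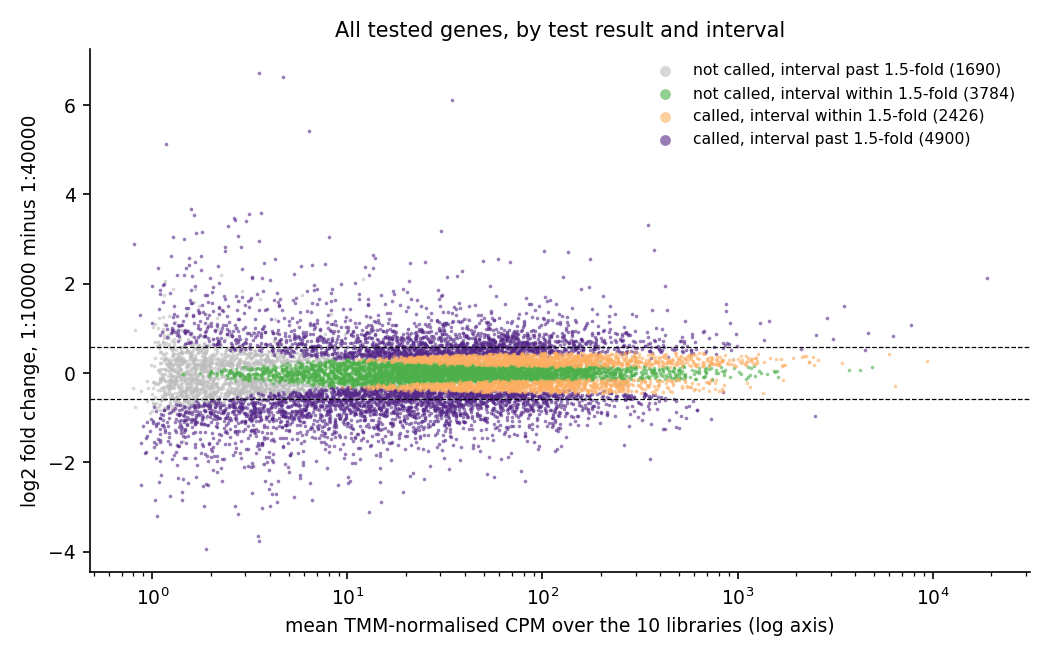
Each point is 1 of the 12800 tested genes, with its mean TMM-normalised CPM over the 10 libraries on a log x axis and its log2 fold change, 1:10000 minus 1:40000, on the y axis. Colours give the test result and whether the 95% interval stays within 1.5-fold (dashed lines): 4900 genes were called with an interval past the margin, and the 1690 unresolved genes lie at low levels, with a median of 2.44 CPM.

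Metallothionein genes were among the most strongly different of all. MT2A and MT1X encode inducible metal-binding proteins of epithelial cells and were the largest increases above 5 CPM. They lie in the metallothionein cluster of chromosome 16, MT2A at chr16:56608199-56609497 and MT1X at chr16:56682424-56684196 (GENCODE 29, GRCh38). The 250 bases before their RefSeq start sites (GRCh38.p14, plus strand, chr16:56608334-56608583 and chr16:56682220-56682469) are printed because both genes rose together and carry copies of the metal response element, the site that MTF-1 binds. Capitals mark matches to its core, TGCGCNC or TGCACNC, on either strand.
MT2A: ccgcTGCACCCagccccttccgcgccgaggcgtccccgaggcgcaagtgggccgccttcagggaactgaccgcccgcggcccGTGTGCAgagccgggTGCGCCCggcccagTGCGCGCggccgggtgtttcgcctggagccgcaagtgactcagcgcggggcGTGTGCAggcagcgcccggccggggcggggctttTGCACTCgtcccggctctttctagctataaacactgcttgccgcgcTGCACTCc
MT1X: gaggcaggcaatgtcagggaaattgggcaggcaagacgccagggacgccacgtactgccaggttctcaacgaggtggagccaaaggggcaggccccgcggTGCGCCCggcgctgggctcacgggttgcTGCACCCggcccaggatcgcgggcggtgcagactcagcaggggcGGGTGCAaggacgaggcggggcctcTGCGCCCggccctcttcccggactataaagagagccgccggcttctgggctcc
The MT2A window held 7 matches and the MT1X window 4. The same core occurs in 24.7% of 27305 promoter windows of this length, so a match is a description of the sequence and not evidence of binding.

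Across replicates 1 to 5, MT2A was at 96.6, 25.4, 67.1, 74.2 and 72.9 CPM at 1:10000 and 0.609, 0.378, 1.72, 1.39 and 1.41 CPM at 1:40000. All 5 libraries of the stronger dilution lay above all 5 of the weaker, and replicate 2 was the lowest in each group. The groups differed beyond this spread (log2 fold change 6.12 ± 0.51, adjusted p = 6.59e-06). Without replicate 1 of 1:40000 the log2 fold change was 5.52, without replicates 1 and 2 of 1:40000 5.45, and within replicates 3 to 5 of both dilutions 5.52; within replicates 1 and 2 it was 6.71 (adjusted p = 0.0582). MT1X was at 12.1, 8.33, 10.6, 14.9 and 16.4 CPM at 1:10000 and 0.262, 0, 0.438, 0 and 0.505 CPM at 1:40000, with 2 libraries of the weaker dilution at 0 (log2 fold change 5.41 ± 0.33, adjusted p = 1.73e-10). MT1F was at 10.6 ± 2.89 against 2.80 ± 0.333 CPM (log2 fold change 1.98 ± 0.19). MT1E, named after its values were seen, was at 9.27 ± 4.4 against 0.129 ± 0.158 CPM (log2 fold change 6.63 ± 0.66), with 5.96 when replicate 1 of 1:40000 was left out. These family members are near-identical in sequence, so how reads were split among them is uncertain. Of 13 listed metallothionein and zinc transport genes, 8 passed the filter on low counts, 5 of these were higher and 1 was lower, with a median of 1.18 that became 0.37 with a mean of at least 5 CPM (7 tested) and 2.01 by DESeq2 (13 tested). The lower one was SLC39A10, a zinc importer of the plasma membrane, at 74.9 ± 9.06 against 134 ± 8.38 CPM (log2 fold change -0.85 ± 0.08). SLC30A1, the zinc exporter and another textbook MTF-1 target, had 1 core match in its window and was at 118 ± 14 against 127 ± 10.2 CPM, with an interval of -0.27 to 0.07 around a log2 fold change of -0.10.

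Immediate early genes, which respond to growth factor, calcium and stress signals within minutes, were higher at the stronger dilution as a group. Of 26 listed, 21 were tested, 18 were higher and none was lower by edgeR's test, with a median of 0.95 against -0.02 for all genes. At an unadjusted p under 0.05 the count in the lower direction was 1, and by DESeq2 it was 0. Under upper-quartile scaling 17 were called higher and 1 lower. ATF3, a stress-inducible bZIP repressor on chr1:212565334-212620777, was at 122, 110.0, 87.6, 95.5 and 92.2 CPM at 1:10000 and 19.5, 18.9, 15.1, 16.7 and 15.7 CPM at 1:40000. Its groups did not overlap (log2 fold change 2.56 ± 0.10, adjusted p = 1.26e-12). DUSP1 and DUSP5 encode phosphatases that switch off MAP kinases. DUSP1 was at 83.9 ± 16.3 against 14.9 ± 1.78 CPM (log2 fold change 2.50 ± 0.12). DUSP5, on chr10:110497838-110511544, was at 228, 224, 134, 157 and 141 CPM at 1:10000 and 29.3, 29.1, 22.6, 27.0 and 26.8 CPM at 1:40000. Replicates 1 and 2 were above replicates 3 to 5 in both groups, and every library of the stronger dilution was above every library of the weaker (log2 fold change 2.72 ± 0.17, adjusted p = 1.60e-07).

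FOS, an AP-1 subunit, was at 28.6, 30.3, 11.3, 17.4 and 17.8 CPM at 1:10000 and 6.21, 2.64, 3.14, 3.17 and 2.32 CPM at 1:40000, again highest in replicates 1 and 2 at 1:10000 (log2 fold change 2.37 ± 0.34, adjusted p = 1.69e-04). Within replicates 1 and 2 alone its log2 fold change was 2.35, and within replicates 3 to 5 alone it was 2.41. EGR1, a zinc finger factor, was at 112 ± 32.0 against 48.9 ± 14.7 CPM (log2 fold change 1.16 ± 0.25). KLF6, induced on tissue injury, was at 189 ± 17.3 against 79.0 ± 7.10 CPM (log2 fold change 1.26 ± 0.08), and DUSP6, an ERK-specific phosphatase, at 37.3 ± 7.38 against 13.1 ± 2.36 CPM (log2 fold change 1.46 ± 0.14). PLK3, a stress-responsive kinase and one of the 12 largest increases, was at 23.5 ± 6.92 against 3.37 ± 1.03 CPM (log2 fold change 2.65 ± 0.22).

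PTGS2, cyclooxygenase-2, which makes prostaglandin H2 from arachidonic acid and is induced in injured epithelium, was the third largest increase above 5 CPM. The gene lies on chr1:186671791-186680427. It was at 674, 711, 551, 607 and 635 CPM at 1:10000 and 70.9, 61.9, 62.9, 61.1 and 57.8 CPM at 1:40000, and all libraries of the stronger dilution lay far above those of the weaker (log2 fold change 3.33 ± 0.07, adjusted p = 2.02e-16). PTGES, the synthase that converts prostaglandin H2 to E2, was at 13.7 ± 1.45 against 5.88 ± 0.570 CPM (log2 fold change 1.251 ± 0.13). PTGIS, the prostacyclin synthase, went the other way and was among the 12 largest decreases, at 2.60, 3.17, 1.72, 2.51 and 3.47 CPM at 1:10000 and 18.8, 18.9, 11, 13.4 and 13.9 CPM at 1:40000 (log2 fold change -2.50 ± 0.21, adjusted p = 5.26e-09). Over the prostaglandin list of 14 genes, 8 were tested, 3 were higher and 3 lower.

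Epithelial inflammatory genes that passed the filter on low counts were mostly higher at 1:10000. Of 26 cytokine and chemokine genes only 9 passed it, and low genes can pass through the dilution where they are higher. Of these 9, 8 were higher and none lower, with a median of 0.76. The lower direction held 0 genes at an unadjusted p under 0.05 and 0 by DESeq2. By DESeq2 the median was 1.62 (16 tested). With a mean of at least 5 CPM it was 0.73 (5 tested, 5 higher and 0 lower). CCL20, the chemokine that draws CCR6-bearing lymphocytes and dendritic cells to the gut lining, was at 17.7, 14.7, 9.69, 14.2 and 15.1 CPM at 1:10000 and 1.72, 1.89, 1.31, 1.78 and 2.32 CPM at 1:40000, without overlap (log2 fold change 3.05 ± 0.19, adjusted p = 1.85e-10). CXCL3, a neutrophil chemokine, was at 4.11 ± 0.837 against 0.623 ± 0.260 CPM (log2 fold change 2.73 ± 0.28), and it shares long stretches with its neighbours, so its count is uncertain. IL18, an epithelial cytokine released after caspase cleavage, was at 81.8 ± 10.4 against 46.0 ± 7.23 CPM (log2 fold change 0.83 ± 0.11), and IL32 was at 147 ± 14.9 against 89.7 ± 10.5 CPM (log2 fold change 0.70 ± 0.08).

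NF-kB subunits and targets were likewise mostly higher, 13 of 16 tested, with 2 lower and a median of 0.58. RELB, a subunit of the non-canonical arm, was at 30.4 ± 5.88 against 8.06 ± 1.59 CPM (log2 fold change 1.87 ± 0.16). NFKB2, the precursor of its partner, was at 119 ± 9.52 against 46.6 ± 9.13 CPM (log2 fold change 1.35 ± 0.11). ICAM1, the adhesion molecule bound by neutrophil integrins, was at 109 ± 5.64 against 42.4 ± 7.16 CPM (log2 fold change 1.33 ± 0.09), and NFKBIA, the inhibitor that NF-kB induces to end its own signal, was at 27.4 ± 7.22 against 13.6 ± 1.74 CPM (log2 fold change 0.99 ± 0.15). Interferon response genes did not share a direction: of 12 tested, 4 were higher and 5 lower, and the balance turned to 4 and 3 when replicate 5 of either dilution was left out. ISG15, a ubiquitin-like modifier, was at 17.7 ± 4.49 against 8.85 ± 1.83 CPM (log2 fold change 1.07 ± 0.16), whereas BST2, the virus-tethering protein, was at 52.2 ± 5.38 against 80.7 ± 8.23 CPM (log2 fold change -0.62 ± 0.09) and OAS3, an antiviral synthetase, at 37.4 ± 4.25 against 50.4 ± 4.76 CPM (log2 fold change -0.45 ± 0.09).

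Other genes among the largest increases have roles in stress and repair. NGFR, the low-affinity neurotrophin receptor, was at 36.7, 46.8, 55.5, 68.8 and 65.2 CPM at 1:10000 and 8.32, 6.42, 3.72, 4.55 and 5.45 CPM at 1:40000 (log2 fold change 3.19 ± 0.25, adjusted p = 1.41e-06). Its log2 fold change was 2.36 within replicates 1 and 2 and 3.88 within replicates 3 to 5. GDF15, a secreted stress hormone on chr19:18374731-18389176, was at 275, 275, 179, 229 and 215 CPM at 1:10000 and 43.8, 34.4, 31.2, 27.8 and 39.4 CPM at 1:40000, with no overlap (log2 fold change 2.71 ± 0.15, adjusted p = 2.29e-08). ALPG, a placental-type alkaline phosphatase with near-identical relatives that make its count uncertain, was at 23.6 ± 4.71 against 4.10 ± 0.723 CPM (log2 fold change 2.57 ± 0.15). CASP5, an inflammatory caspase named after its values were seen, was at 5.70 ± 1.63 against 0.563 ± 0.561 CPM (log2 fold change 3.57 ± 0.34).

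**Figure D2:**
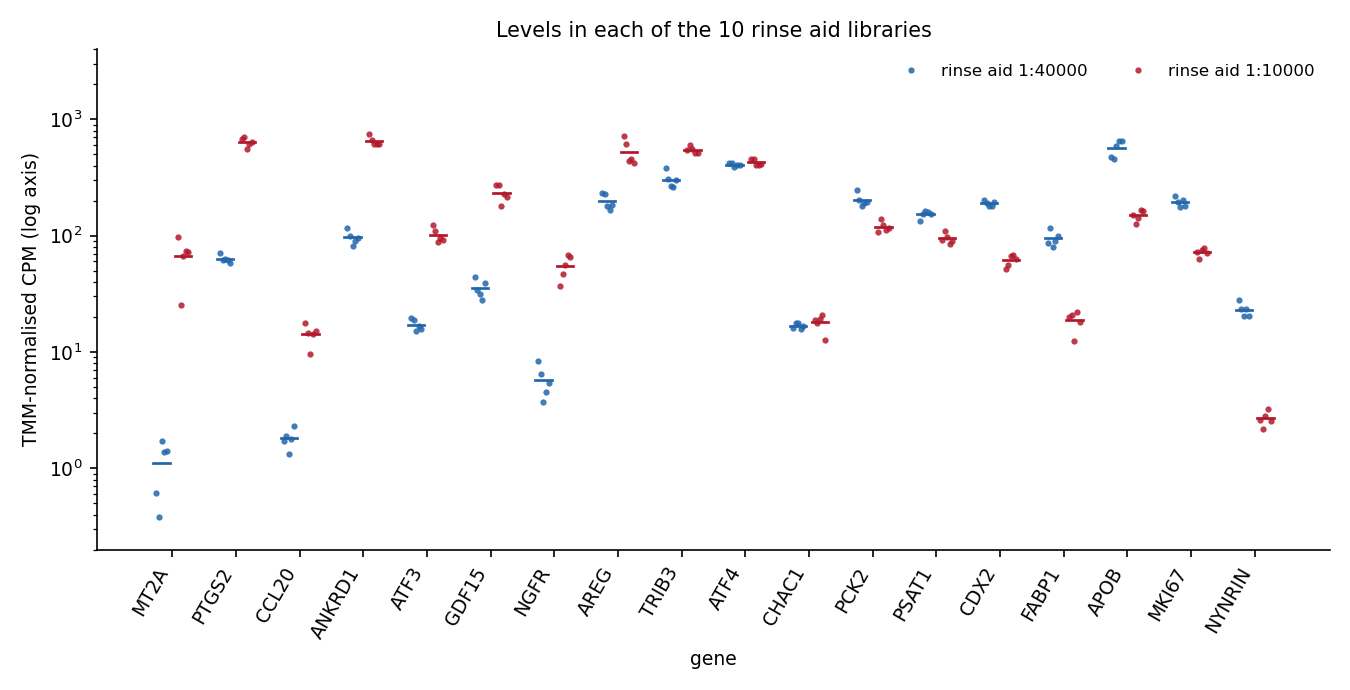
Points are the 5 libraries of each dilution and short bars their means, in TMM-normalised CPM on a log axis, for 18 genes, from MT2A to NYNRIN. PTGS2 lies between 551 and 711 CPM at 1:10000 against 57.8 to 70.9 at 1:40000, ATF4 and CHAC1 overlap between the dilutions, and PCK2, PSAT1, CDX2, FABP1, APOB, MKI67 and NYNRIN are lower at 1:10000.

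Several growth factor ligands and mechanically regulated genes were also higher. ANKRD1, a nuclear ankyrin-repeat protein and a standard target of the mechanosensitive coactivator YAP, was at 753, 668, 611, 619 and 612 CPM at 1:10000 and 116, 100.1, 81.3, 89.7 and 94.5 CPM at 1:40000 (log2 fold change 2.76 ± 0.09, adjusted p = 3.07e-13). CCN1 and CCN2, matricellular proteins and YAP targets, were at 208 ± 40 against 46.6 ± 7.40 CPM (log2 fold change 2.14 ± 0.14) and 46.9 ± 5.45 against 13.5 ± 4.29 CPM (log2 fold change 1.72 ± 0.18). Over the YAP list, 9 of 16 tested genes were higher and 3 lower, with a median of 0.35. CRIM1, a membrane protein that binds BMPs, was also among the higher ones at 759.5 ± 45.5 against 414 ± 6.02 CPM (log2 fold change 0.87 ± 0.06). Of 11 tested genes of the EGFR family and its ligands, 6 were higher and 4 lower. The ligands AREG, EREG and HBEGF were higher. AREG was at 711, 616, 439, 452 and 423 CPM at 1:10000 and 231, 228, 180.1, 166 and 184 CPM at 1:40000 (log2 fold change 1.42 ± 0.17, adjusted p = 4.45e-05), EREG at 314 ± 104 against 95.3 ± 25.5 CPM (log2 fold change 1.72 ± 0.26) and HBEGF at 31.8 ± 9.56 against 8.72 ± 0.987 CPM (log2 fold change 1.81 ± 0.17). Replicates 1 and 2 of AREG were above replicates 3 to 5 in both groups, and its log2 fold change was 1.54 within the former and 1.33 within the latter. ERRFI1, the feedback inhibitor of EGFR kinase, was at 149.8 ± 22.6 against 64.8 ± 9.34 CPM (log2 fold change 1.2 ± 0.11). EGFR itself was at 153 ± 11.6 against 105 ± 7.11 CPM (log2 fold change 0.54 ± 0.07), while its partners were lower, ERBB2 at 147 ± 8.34 against 280.0 ± 42.9 CPM (log2 fold change -0.93 ± 0.09) and ERBB3 at 105 ± 4.95 against 233 ± 35.8 CPM (log2 fold change -1.15 ± 0.09).

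Keratins, the intermediate filaments of epithelia, had 7 of 8 tested members higher and none lower (0 also at an unadjusted p under 0.05, 0 by DESeq2), with a median of 2.05. Most of these were low genes, which can pass the filter through the dilution where they are higher. With a mean of at least 5 CPM only 3 were tested, 2 of them higher, and the median was 0.52. KRT17, which is induced in wounded epithelium, was at 5.55, 7.53, 4.17, 8.26 and 6.19 CPM at 1:10000 and 1.26, 1.13, 0.949, 1.48 and 0.808 CPM at 1:40000 (log2 fold change 2.45 ± 0.23, adjusted p = 5.78e-08), and all 5 libraries of the stronger dilution were above the weaker. KRT80 and KRT81 were at 2.88 ± 0.888 against 0.424 ± 0.265 CPM (log2 fold change 2.50 ± 0.32) and 3.03 ± 1.23 against 0.238 ± 0.104 CPM (log2 fold change 3.53 ± 0.35). KRT18 and KRT8, the pair that fills simple epithelial cells, differed by 0.75 and 0.52. They have 58 and 50 annotated pseudogenes, and the near-identical KRT86 lies beside KRT81, so these counts are uncertain.

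Annexins and S100 proteins, which bind membranes when calcium enters, gave 9 higher and 3 lower of 16 tested, with a median of 0.30. ANXA1, an anti-inflammatory annexin recruited to membrane wounds, was at 39.1, 34.9, 34.7, 31.0 and 37.6 CPM at 1:10000 and 5.71, 7.55, 7.63, 5.44 and 6.87 CPM at 1:40000 (log2 fold change 2.45 ± 0.11, adjusted p = 6.04e-12). ANXA3 was at 469 ± 17.4 against 283 ± 14.8 CPM (log2 fold change 0.73 ± 0.06). ESCRT genes, whose products pinch off damaged membrane, gave 6 higher, 2 lower and 7 not called of 15, with a median of 0.08. The higher share was 40%, against 27.1% of all tested genes, and 8 of the 15 intervals lay within 1.5-fold. CHMP2B was at 179.5 ± 26.4 against 108 ± 6.39 CPM (log2 fold change 0.73 ± 0.08) and TSG101 at 101 ± 5.28 against 65.3 ± 5.65 CPM (log2 fold change 0.61 ± 0.07). Integrins and other genes of basal anchorage gave 9 higher and 4 lower of 17. PLAUR, the urokinase receptor, was at 7.97 ± 2.92 against 2.58 ± 0.800 CPM (log2 fold change 1.63 ± 0.27). TGM2, a protein crosslinker, was at 239 ± 28.4 against 139 ± 12.9 CPM (log2 fold change 0.77 ± 0.08). Actin and focal adhesion genes gave 9 higher, 4 lower and 12 not called of 25, with a median of 0.14. The higher share was 36%, against the same 27.1%, and 15 of the 25 intervals lay within 1.5-fold. Among the higher ones, TPM4, a tropomyosin, was at 749.5 ± 18.6 against 459 ± 27.0 CPM (log2 fold change 0.70 ± 0.06). MYL12A, a myosin light chain, was at 325 ± 33.0 against 194 ± 5.99 CPM (log2 fold change 0.75 ± 0.07).

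The integrated stress response list did not move as a block. Of 39 tested genes, 17 were higher, 10 were lower and 12 were not called, with a median of 0.13, and the interval lay within 1.5-fold for 20. Feedback regulators of the pathway were higher at 1:10000, the 2 transfer RNA synthetases named below differed little, and the 3 genes of serine synthesis were lower.

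ATF4 itself, the factor translated when eIF2 is phosphorylated, was at 457, 456, 402, 406 and 411 CPM at 1:10000 and 424, 417, 387, 405 and 404 CPM at 1:40000, with overlapping groups and an interval of -0.06 to 0.19 around a log2 fold change of 0.06; only its transcript is measured here. PPP1R15A, the phosphatase subunit that restores eIF2, was at 340.0, 309.6, 272, 299 and 278 CPM at 1:10000 and 72.5, 55.5, 40.9, 43.2 and 41.4 CPM at 1:40000 (log2 fold change 2.55 ± 0.16, adjusted p = 2.24e-07). DDIT3, the factor CHOP, was at 86.2 ± 9.17 against 45.9 ± 10.8 CPM (log2 fold change 0.90 ± 0.14). TRIB3, a pseudokinase that restrains ATF4 and CHOP, was at 542, 596, 557, 518 and 516 CPM at 1:10000 and 379.7, 305, 267, 263 and 299 CPM at 1:40000 (log2 fold change 0.85 ± 0.09, adjusted p = 1.86e-07). Every library of the stronger dilution was above the weaker for these 3 genes.

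Targets in amino acid supply differed in direction. SLC3A2, the heavy chain shared by several amino acid exchangers, was at 1252, 1260.3, 1265, 1239 and 1296 CPM at 1:10000 and 479, 465, 476, 473 and 512 CPM at 1:40000 (log2 fold change 1.39 ± 0.05, adjusted p = 4.98e-13), and SLC38A2, a glutamine carrier, was at 741 ± 141 against 423 ± 27.8 CPM (log2 fold change 0.81 ± 0.10). CTH, which makes cysteine, was at 20.6 ± 1.40 against 12.1 ± 2.94 CPM (log2 fold change 0.78 ± 0.13), and MTHFD2, a mitochondrial folate enzyme, at 886 ± 109 against 463 ± 50.7 CPM (log2 fold change 0.94 ± 0.09). VLDLR, a lipoprotein receptor that ATF4 induces, was at 46.1 ± 3.56 against 25.3 ± 1.38 CPM (log2 fold change 0.87 ± 0.08). Against these, PCK2, the mitochondrial phosphoenolpyruvate carboxykinase on chr14:24094053-24110598, was lower at 1:10000, at 107, 139.5, 124, 111 and 117 CPM at 1:10000 and 248.7, 203, 180.1, 191 and 196 CPM at 1:40000 (log2 fold change -0.78 ± 0.09, adjusted p = 6.68e-07). PHGDH, PSAT1 and PSPH catalyse the 3 steps of serine synthesis. PSAT1 was at 91.4, 109, 98.1, 85.2 and 89.3 CPM at 1:10000 and 133, 153, 162, 159 and 155 CPM at 1:40000 (log2 fold change -0.69 ± 0.07, adjusted p = 2.39e-07), PHGDH at 286 ± 26.1 against 419 ± 46.1 CPM (log2 fold change -0.55 ± 0.08) and PSPH at 87.9 ± 8.23 against 123 ± 4.88 CPM (log2 fold change -0.49 ± 0.07). ALDH1L2, another mitochondrial folate enzyme, was at 28.8 ± 4.87 against 40.5 ± 5.32 CPM (log2 fold change -0.51 ± 0.12), and SLC1A5, the glutamine exchanger, at 591 ± 45.4 against 746 ± 32.6 CPM (log2 fold change -0.34 ± 0.06).

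A further set was bounded at like levels. CHAC1, which degrades glutathione and is a direct ATF4 and CHOP target, was at 18.8, 17.8, 19.3, 21.0 and 12.7 CPM at 1:10000 and 16.2, 17.8, 17.8, 15.7 and 16.9 CPM at 1:40000, with an interval of -0.15 to 0.34 around a log2 fold change of 0.10. DDIT4, an inhibitor of mTORC1, was at 96.1 ± 13.8 against 77.6 ± 8.40 CPM (log2 fold change 0.31 ± 0.10), STC2, a secreted glycoprotein, at 249.04 ± 18.1 against 290.4 ± 8.90 CPM (log2 fold change -0.22 ± 0.06), and SLC7A11, the cystine importer, at 99.7 ± 7.58 against 114 ± 3.97 CPM (log2 fold change -0.19 ± 0.06; no call without replicate 2 of 1:10000 or replicate 3 of 1:40000). GARS1 and MARS1, synthetases for glycine and methionine, were at 493 ± 41.7 against 412 ± 19.9 CPM (log2 fold change 0.26 ± 0.06) and 425 ± 33.3 against 361 ± 24.3 CPM (log2 fold change 0.23 ± 0.06). SHMT2, the mitochondrial serine hydroxymethyltransferase, was at 467 ± 22.3 against 572 ± 31.1 CPM (log2 fold change -0.29 ± 0.06). ATF3 and CHAC1 are both textbook ATF4 targets, and their upstream windows (RefSeq, GRCh38.p14, plus strand, chr1:212565157-212565406 and chr15:40953221-40953470) are shown because one differed several-fold between the dilutions and the other did not. Capitals mark the single match in each to the C/EBP-ATF response element, searched as TGATGNAAN on both strands, which occurs in 3.18% of 27305 windows. Of the listed genes with a window, 1 of 17 higher, 0 of 6 lower and 3 of 10 not called held a match. A match describes the sequence and is not evidence of binding. Each gene was searched before a single start site, so elements near any other start are not covered.
ATF3: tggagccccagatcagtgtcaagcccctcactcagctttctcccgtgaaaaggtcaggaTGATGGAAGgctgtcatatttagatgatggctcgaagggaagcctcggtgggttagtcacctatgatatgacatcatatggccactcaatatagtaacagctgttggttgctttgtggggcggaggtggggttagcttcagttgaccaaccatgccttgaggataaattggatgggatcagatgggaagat
CHAC1: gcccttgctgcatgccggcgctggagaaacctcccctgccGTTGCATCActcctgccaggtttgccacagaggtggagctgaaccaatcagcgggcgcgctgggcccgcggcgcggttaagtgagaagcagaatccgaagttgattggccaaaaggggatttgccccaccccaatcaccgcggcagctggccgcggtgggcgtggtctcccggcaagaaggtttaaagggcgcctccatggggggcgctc

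**Figure D3:**
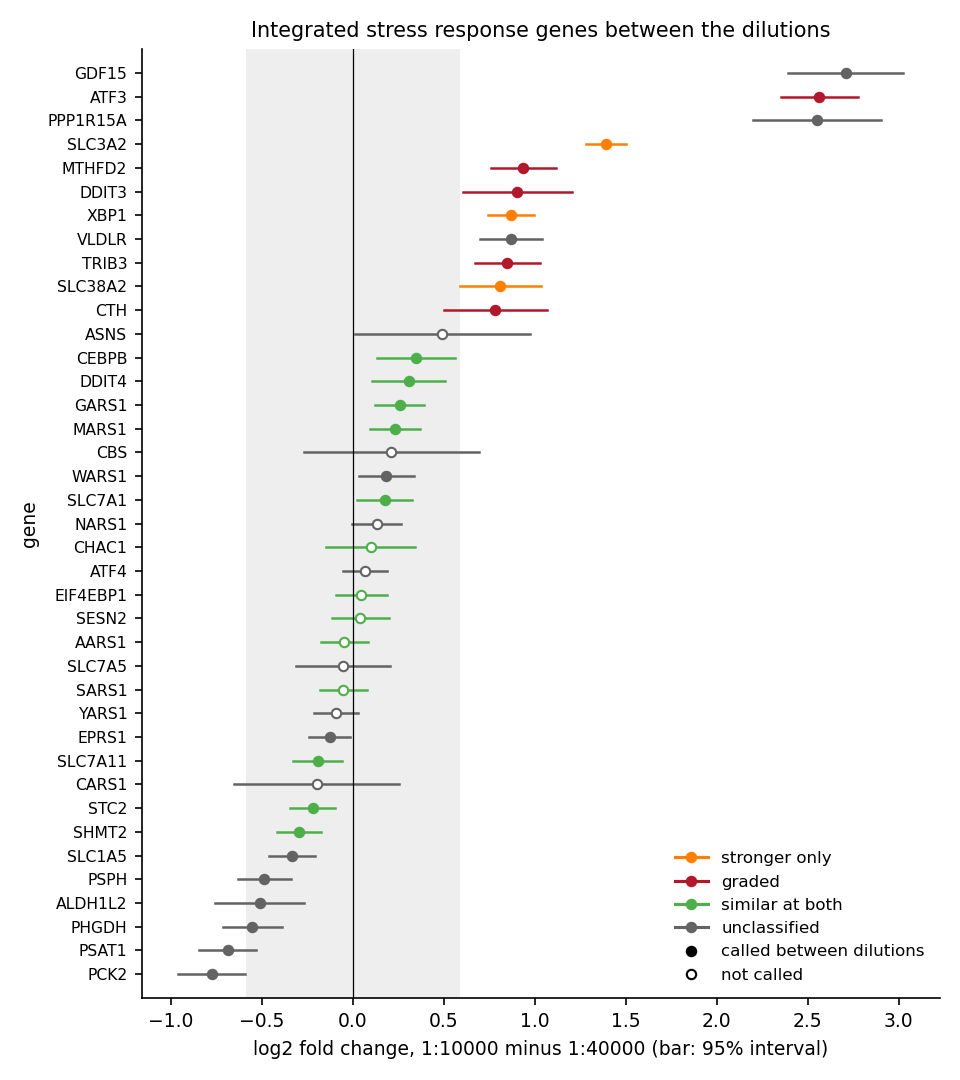
Each row is 1 of the 39 tested integrated stress response genes, with its log2 fold change, 1:10000 minus 1:40000, as a point and the 95% interval as a bar; the grey band is the 1.5-fold margin and colours give the response class. GDF15, ATF3 and PPP1R15A are highest at 2.71, 2.56 and 2.55, CHAC1 and ATF4 lie inside the band, and PCK2 is lowest at -0.78.

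Protein-folding and oxidative stress genes that passed the test were more often higher than lower. The unfolded protein response list gave 12 higher and 4 lower of 22, with a median of 0.28. DNAJB9, an ER co-chaperone, was at 147, 122, 126, 118 and 123 CPM at 1:10000 and 49.9, 51.4, 41.5, 39.4 and 36.8 CPM at 1:40000 (log2 fold change 1.55 ± 0.09, adjusted p = 9.90e-11), XBP1, the factor spliced by IRE1, at 354 ± 17.1 against 194 ± 13.8 CPM (log2 fold change 0.87 ± 0.06) and HSPA5, the main ER chaperone, at 1269 ± 157 against 691 ± 25.1 CPM (log2 fold change 0.88 ± 0.07). CALR, calreticulin, was lower at 551 ± 14.6 against 717 ± 41.0 CPM (log2 fold change -0.38 ± 0.06). Cytosolic heat shock genes gave 9 higher and 2 lower of 13, with a median of 0.34, among them DNAJB1 at 163 ± 23.6 against 88.6 ± 8.33 CPM (log2 fold change 0.89 ± 0.09) and HSPH1 at 286 ± 38.9 against 152 ± 24.4 CPM (log2 fold change 0.91 ± 0.11). HSPA6, an HSP70 made almost only under stress and named after its values were seen, was at 17.5, 3.17, 5.15, 5.76 and 3.47 CPM at 1:10000 and 0.0740, 0, 0.0365, 0 and 0.101 CPM at 1:40000, with 2 libraries of the weaker dilution at 0 and replicate 1 the highest at the stronger (log2 fold change 6.72 ± 0.86, adjusted p = 3.75e-06). Without that replicate the value was 6.03, and with the replicate block 7.62. It has a near-identical relative, so its count is uncertain. NRF2 targets gave 9 higher and 3 lower of 18. OSGIN1, an oxidative-stress-induced growth inhibitor, was at 46.0 ± 5.11 against 12.6 ± 0.881 CPM (log2 fold change 1.87 ± 0.10). TXNRD1, thioredoxin reductase, was at 362 ± 73.3 against 199 ± 6.58 CPM (log2 fold change 0.86 ± 0.11) and ME1, malic enzyme, at 473 ± 40.1 against 312 ± 5.37 CPM (log2 fold change 0.60 ± 0.06).

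Autophagy genes gave 11 higher and 1 lower of 18, with a median of 0.39. SQSTM1, the cargo receptor p62, was at 546 ± 17.7 against 273 ± 30.8 CPM (log2 fold change 1 ± 0.07). GABARAPL1 and MAP1LC3B, ubiquitin-like proteins of the autophagosome membrane, were at 232 ± 17.6 against 107 ± 11 CPM (log2 fold change 1.12 ± 0.07) and 185 ± 9.38 against 113 ± 4.95 CPM (log2 fold change 0.71 ± 0.06). Lysosomal genes went mostly the other way, 3 higher and 11 lower of 23, with a median of -0.20; NAGLU, which degrades heparan sulphate, was at 12.8 ± 1.77 against 34.1 ± 3.25 CPM (log2 fold change -1.41 ± 0.11) and ASAH1, acid ceramidase, at 73.1 ± 4.27 against 122 ± 6.11 CPM (log2 fold change -0.73 ± 0.06). Proteasome genes gave 8 higher, 16 not called and none lower of 24 (0 at an unadjusted p under 0.05 and 0 by DESeq2), and 22 of their 24 intervals lay within 1.5-fold. The higher share was 33.3%, against 27.1% of all tested genes. PSMC6 and PSMD4, of the regulatory cap, had log2 fold changes of 0.48 and 0.34.

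**Figure D4:**
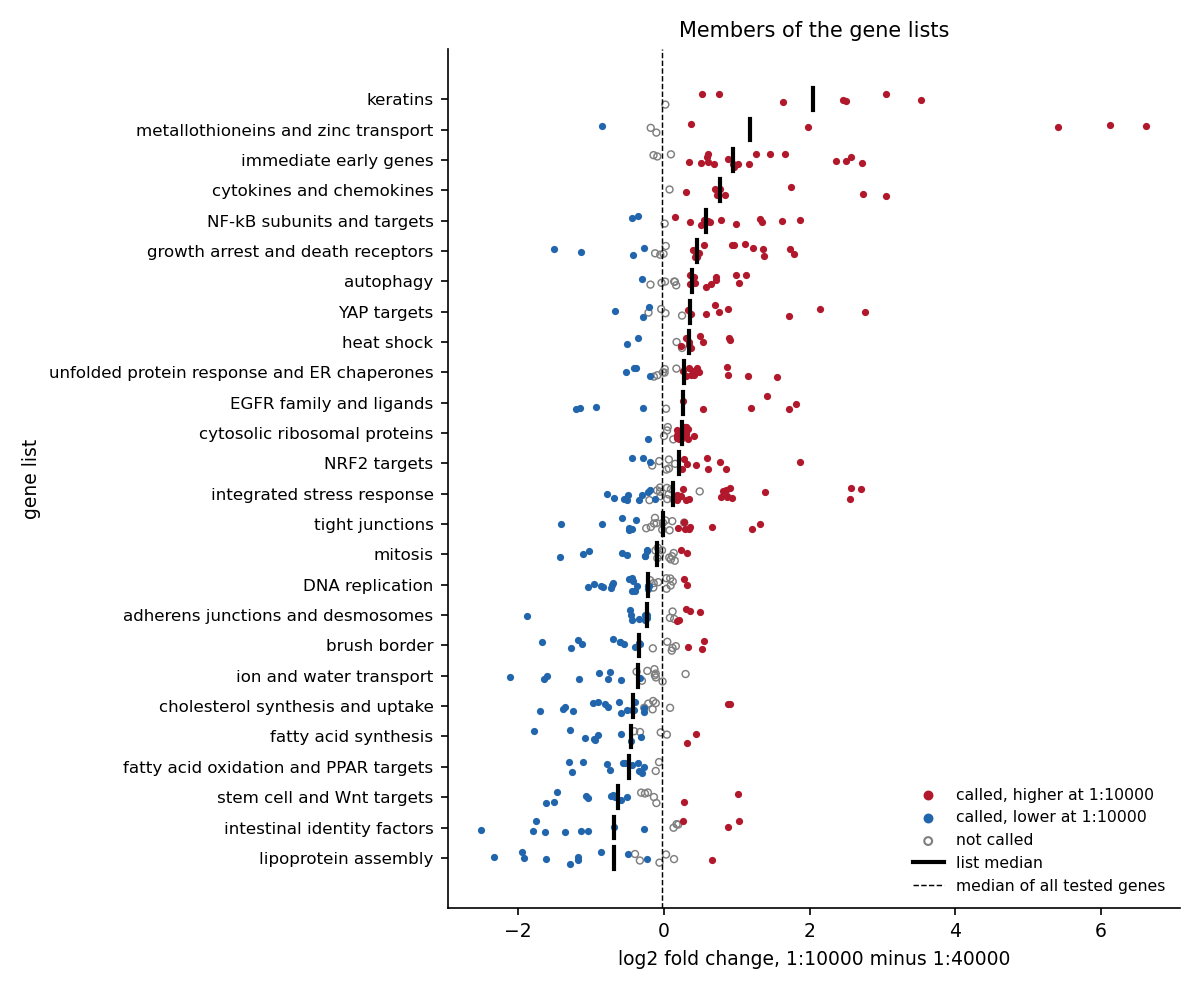
Each point is a tested gene of the list named on the y axis, placed by its log2 fold change, 1:10000 minus 1:40000; red and blue points were called higher or lower, open points were not called, thick bars are list medians and the dashed line is the median of all tested genes, -0.02. Medians run from 2.05 for keratins to -0.68 for lipoprotein assembly. With a mean of at least 5 CPM the keratin median was 0.52 (3 tested) and the lipoprotein assembly median -0.45 (14 tested).

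Genes of enterocyte identity were more often lower than higher at the stronger dilution. Of 15 tested intestinal identity factors, 9 were lower and 3 higher, with a median of -0.68. With a mean of at least 5 CPM, 12 were tested, 6 lower and 3 higher, and the median was -0.08. CDX2, the homeobox factor that fixes intestinal fate, lies on chr13:27962137-27971139 and was at 51.8, 55.9, 66.5, 68.0 and 63.5 CPM at 1:10000 and 202, 191, 179, 179 and 194 CPM at 1:40000. No library of the stronger dilution reached the weaker (log2 fold change -1.63 ± 0.08, adjusted p = 5.14e-12). HNF4A, the nuclear receptor of enterocyte differentiation, was at 187, 203, 214, 223 and 227 CPM at 1:10000 and 403, 396, 428, 477 and 466 CPM at 1:40000 (log2 fold change -1.04 ± 0.07, adjusted p = 4.21e-10). FOXA1 was at 53.3 ± 5.89 against 179.9 ± 29.5 CPM (log2 fold change -1.75 ± 0.11) and GATA4 at 0.555 ± 0.375 against 3.29 ± 0.983 CPM (log2 fold change -2.51 ± 0.39). For GATA4 the value was -3.66 within replicates 1 and 2 and -1.9 within replicates 3 to 5. The 3 exceptions included ELF3, an epithelial ETS factor, at 106 ± 12.8 against 51.7 ± 7.97 CPM (log2 fold change 1.03 ± 0.10) and KLF5, a factor of crypt proliferation, at 311 ± 24.1 against 170.2 ± 27.5 CPM (log2 fold change 0.88 ± 0.09).

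Lipoprotein assembly genes were mostly lower, 10 against 1 higher of 16 tested, with a median of -0.68. With a mean of at least 5 CPM, 14 were tested, 8 lower and 1 higher, and the median was -0.45. FABP1, the liver-type fatty acid carrier on chr2:88122982-88128116, was at 20.2, 20.6, 12.5, 22 and 18.0 CPM at 1:10000 and 87.0, 116, 80.3, 89.6 and 99.8 CPM at 1:40000, without overlap (log2 fold change -2.33 ± 0.13, adjusted p = 4.31e-10). APOB, the backbone of chylomicrons and related particles, was at 150, 125, 141, 166 and 164 CPM at 1:10000 and 471, 458, 594, 644 and 649 CPM at 1:40000, also without overlap (log2 fold change -1.92 ± 0.11, adjusted p = 2.96e-09). DGAT2, which completes triglycerides, was at 69.9 ± 8.08 against 170.3 ± 4.69 CPM (log2 fold change -1.29 ± 0.07). The apolipoproteins APOA1, APOC3 and APOA4 were at 343 ± 63.6 against 628 ± 116 CPM (log2 fold change -0.87 ± 0.16), 43.3 ± 7.67 against 98.5 ± 9.54 CPM (log2 fold change -1.18 ± 0.10) and 1.72 ± 0.951 against 6.45 ± 1.51 CPM (log2 fold change -1.95 ± 0.34). ABCA1, the exporter that loads APOA1 with cholesterol, was among the 12 largest decreases, at 10.4, 9.12, 6.01, 7.53 and 6.79 CPM at 1:10000 and 44.4, 41.9, 40.8, 41.1 and 39.1 CPM at 1:40000 (log2 fold change -2.38 ± 0.12, adjusted p = 1.65e-11).

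Genes of lipid synthesis and oxidation were more often lower than higher. Cholesterol synthesis and uptake gave 16 lower and 2 higher of 24, with a median of -0.43. LSS, which closes the sterol ring, was at 11.5 ± 1.74 against 37.1 ± 5.83 CPM (log2 fold change -1.70 ± 0.13), and TM7SF2, a sterol reductase, at 41.0 ± 3.60 against 107 ± 11.4 CPM (log2 fold change -1.38 ± 0.08). The higher members included STARD4, a cytosolic sterol carrier, at 329 ± 21.6 against 179 ± 11.5 CPM (log2 fold change 0.88 ± 0.06). Fatty acid synthesis gave 9 lower and 2 higher of 15, with FASN, the synthase itself, at 347 ± 7.30 against 673 ± 49.4 CPM (log2 fold change -0.96 ± 0.06), ELOVL6, an elongase, at 16.8 ± 2.45 against 41.2 ± 2.64 CPM (log2 fold change -1.29 ± 0.10) and SCD, the desaturase, at 1700.1 ± 235 against 3285 ± 368 CPM (log2 fold change -0.95 ± 0.09). Fatty acid oxidation and PPAR targets gave 12 lower and none higher of 14 (0 at an unadjusted p under 0.05 and 0 by DESeq2), with EHHADH, a peroxisomal enzyme, at 35.2 ± 3.40 against 84.6 ± 3.08 CPM (log2 fold change -1.27 ± 0.07) and PPARA, the controlling receptor, at 20.6 ± 2.14 against 44.6 ± 3.32 CPM (log2 fold change -1.11 ± 0.09). Without a filter on low counts this list gave 12 lower and 1 higher of 18. FGA, a fibrinogen chain, was at 22.9 ± 3.05 against 84.1 ± 12.1 CPM (log2 fold change -1.88 ± 0.11), and RBP4, the retinol carrier, at 215 ± 24.8 against 304 ± 26.1 CPM (log2 fold change -0.50 ± 0.08). The hepatocyte-like plasma protein list to which they belong gave 7 lower and none higher of 14 (0 and 0 in the same order). Without replicate 1 of 1:40000 it gave 6 lower and 1 higher.

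Brush border and ion transport genes that passed the test were mostly lower too. Brush border genes gave 11 lower and 3 higher of 19, with a median of -0.34. ESPN, an actin bundler of microvilli, was at 10.7 ± 1.01 against 35.3 ± 7.60 CPM (log2 fold change -1.67 ± 0.14) and NHERF1, the scaffold that anchors ezrin and transporters, at 124 ± 13.2 against 271 ± 12 CPM (log2 fold change -1.13 ± 0.07). EZR, ezrin, was instead higher at 729 ± 24.1 against 497 ± 26.6 CPM (log2 fold change 0.55 ± 0.06). Ion and water transport gave 9 lower, none higher and 9 not called of 18 (1 at an unadjusted p under 0.05 and 1 by DESeq2), with AQP3, a water and glycerol channel, at 17.3, 17.6, 17.1, 20.2 and 19.6 CPM at 1:10000 and 49.8, 58.2, 54.3, 62.0 and 65.1 CPM at 1:40000 (log2 fold change -1.65 ± 0.09, adjusted p = 6.13e-11) and ATP1B1, a sodium pump subunit, at 202 ± 11.1 against 343 ± 33.6 CPM (log2 fold change -0.76 ± 0.07). Nutrient transport genes gave 4 higher, 3 lower and 7 not called of 14, with a median of 0.17. The higher share was 28.6% and the lower 21.4%, against 27.1% and 30.1% of all tested genes. Equal numbers were called in each direction among mucins and goblet products, 2 and 2 of 8, BMP and ID genes, 3 and 3 of 12, membrane lipid genes, 7 and 7 of 19, and the prostaglandin pathway, 3 and 3 of 8. Each share was 25% for mucins and goblet products and for BMP and ID genes. It was 36.8% for membrane lipid genes and 37.5% for the prostaglandin pathway.

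Transcripts of the glucose transporters SLC2A1 and SLC2A3 went the other way. SLC2A1, the ubiquitous glucose transporter, was at 1309.7, 1589.7, 1162, 1185 and 1220.2 CPM at 1:10000 and 448, 349, 461, 447 and 515 CPM at 1:40000, all above the weaker dilution (log2 fold change 1.54 ± 0.10, adjusted p = 3.73e-09), and SLC2A3, whose near-identical relative SLC2A14 makes its count uncertain, was at 8067 ± 844 against 4525 ± 223 CPM (log2 fold change 0.83 ± 0.07). HK2, the inducible hexokinase, was at 159.7 ± 20.7 against 51.2 ± 5.61 CPM (log2 fold change 1.61 ± 0.09). The glycolysis list as a whole gave 4 higher and 7 lower of 21, which became 5 and 5 under relative-log scaling and DESeq2; PFKL, a phosphofructokinase, was at 145 ± 7.39 against 205 ± 17 CPM (log2 fold change -0.50 ± 0.07) and PFKFB4, which makes its activator, at 9.70 ± 1.33 against 18.5 ± 0.988 CPM (log2 fold change -0.93 ± 0.11). Hypoxia-inducible genes gave 7 higher and 1 lower of 14, ADM, a vasodilator peptide, being at 41.2 ± 5.72 against 21.5 ± 1.68 CPM (log2 fold change 0.96 ± 0.10) and KDM3A, a histone demethylase, at 97.0 ± 4.5 against 60.8 ± 4.20 CPM (log2 fold change 0.66 ± 0.07). Among xenobiotic genes, 6 were higher and 9 lower of 21. CYP1A1, the cytochrome induced through the aryl hydrocarbon receptor, was at 262, 335, 316, 354 and 369 CPM at 1:10000 and 173, 129.6, 91.9, 84.7 and 99.9 CPM at 1:40000 (log2 fold change 1.49 ± 0.20, adjusted p = 2.06e-04), CYP1B1, another target of that receptor, at 6.71 ± 1.34 against 2.01 ± 0.240 CPM (log2 fold change 1.79 ± 0.19), and CYP3A5, a drug-metabolising cytochrome, at 14.8 ± 4.88 against 3.75 ± 0.830 CPM (log2 fold change 2 ± 0.21). ABCC3, an organic anion exporter, was lower at 28.8 ± 2.37 against 60.5 ± 5.78 CPM (log2 fold change -1.08 ± 0.09), as was MGST3, a microsomal glutathione transferase, at 38.5 ± 2.12 against 73.6 ± 8.88 CPM (log2 fold change -0.92 ± 0.09).

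The 12 largest decreases covered different roles. NYNRIN, a retroelement-derived gene on chr14:24398786-24419288, was at 2.60, 2.18, 2.82, 3.25 and 2.57 CPM at 1:10000 and 28.0, 23.4, 20.3, 23.5 and 20.3 CPM at 1:40000, and the groups were far apart (log2 fold change -3.10 ± 0.16, adjusted p = 6.71e-12). ST3GAL1, which caps mucin-type glycans with sialic acid, was at 2.38, 3.37, 4.17, 3.39 and 4.53 CPM at 1:10000 and 23.7, 26.8, 26.2, 27.6 and 27.4 CPM at 1:40000 (log2 fold change -2.88 ± 0.15, adjusted p = 8.44e-12), and ST6GAL1, which caps N-glycans, was lower as well at 19.3 ± 2.67 against 48.0 ± 5.25 CPM (log2 fold change -1.31 ± 0.10). SPTLC3, a subunit of the first sphingolipid enzyme, was at 4.53, 4.36, 5.03, 6.94 and 4.98 CPM at 1:10000 and 30.3, 41.9, 30.4, 35.0 and 29.4 CPM at 1:40000 (log2 fold change -2.66 ± 0.14, adjusted p = 1.85e-11). IHH, the hedgehog ligand of differentiated gut epithelium, was at 4.55 ± 1.11 against 25.0 ± 4.34 CPM (log2 fold change -2.45 ± 0.16). AOC1, the secreted diamine oxidase, and AGT, angiotensinogen, were at 3.29 ± 1.09 against 17.3 ± 3.19 CPM (log2 fold change -2.43 ± 0.21) and 25.6 ± 1.58 against 137 ± 9.23 CPM (log2 fold change -2.41 ± 0.07). LDHD, the D-lactate dehydrogenase, was at 3.18 ± 0.860 against 17 ± 4.5 CPM (log2 fold change -2.45 ± 0.22), APELA, a peptide ligand of the apelin receptor, at 1.96 ± 0.711 against 10.9 ± 2.35 CPM (log2 fold change -2.46 ± 0.24), and METTL7A and NHS had log2 fold changes of -2.84 and -2.77. METTL7A varied at the weaker dilution, where replicate 2 stood at 21.9 CPM and the others between 6.50 and 13.1. Its value was -3.58 within replicates 1 and 2 and -2.20 within replicates 3 to 5.

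Tight junction genes were divided much as all tested genes were. Their higher share was 30.8%, against 27.1% of all tested genes, and their lower share 26.9%, against 30.1%. Of 26 tested, 8 were higher, 7 lower and 11 not called, with a median of -0.02 that became 0.00 under relative-log scaling and 0.01 by DESeq2; without a filter on low counts the calls were 6 and 6. The higher ones included the polarity scaffolds PATJ, PARD6B, PARD3 and CRB3. PATJ was at 58.0, 62.4, 49.1, 54.6 and 54.9 CPM at 1:10000 and 28.1, 23.0, 22.6, 23.2 and 21.9 CPM at 1:40000 (log2 fold change 1.21 ± 0.09, adjusted p = 2.23e-09), PARD6B at 333 ± 56.5 against 136 ± 25.5 CPM (log2 fold change 1.316 ± 0.13), PARD3 at 177 ± 12.9 against 139.8 ± 14.9 CPM (log2 fold change 0.34 ± 0.07) and CRB3 at 36.3 ± 3.41 against 28.5 ± 3.02 CPM (log2 fold change 0.36 ± 0.09). OCLN, occludin, was at 22, 12.7, 12.6, 12.8 and 13.1 CPM at 1:10000 and 10.1, 7.93, 8.36, 11 and 8.79 CPM at 1:40000, with replicate 1 the highest at the stronger dilution (log2 fold change 0.66 ± 0.16, adjusted p = 0.00150). CLDN4, a sealing claudin, was at 268 ± 36.5 against 220.5 ± 17.8 CPM (log2 fold change 0.28 ± 0.08), CLDN12 at 56.9 ± 9.30 against 47.2 ± 6.77 CPM (log2 fold change 0.29 ± 0.11; no call without replicate 1 or 2 of 1:10000 or replicate 4 or 5 of 1:40000) and LSR, the tricellular junction protein, at 199 ± 4.15 against 173 ± 10.9 CPM (log2 fold change 0.20 ± 0.06).

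The lower tight junction genes were MYLK, TJP3, CGNL1, CLDN15, AMOTL1, MAGI1 and MAGI3. MYLK, the myosin kinase that contracts the junctional actin ring, was at 15.7, 18.8, 18.4, 19.6 and 20.4 CPM at 1:10000 and 56.9, 40.8, 50.1, 48.2 and 45.4 CPM at 1:40000, without overlap (log2 fold change -1.41 ± 0.10, adjusted p = 9.47e-10). CGNL1, paracingulin, was at 11.3 ± 1.77 against 20.1 ± 3.75 CPM (log2 fold change -0.84 ± 0.14). TJP3 was at 62.9 ± 7.85 against 81.3 ± 16 CPM (log2 fold change -0.38 ± 0.12) and CLDN15, a pore-forming claudin, at 2.13 ± 0.597 against 3.03 ± 0.677 CPM (log2 fold change -0.57 ± 0.24). The call for CLDN15 was lost by DESeq2, with the replicate block and on leaving out any of replicates 2 to 5 of 1:10000 or 1, 3 and 5 of 1:40000, where its adjusted p reached 0.2. The scaffolds AMOTL1, MAGI1 and MAGI3 differed by -0.44, -0.48 and -0.48. TJP1, ZO-1, was at 2.11 ± 0.942 against 2.05 ± 1.17 CPM, and at 86.8 ± 4.06 CPM in the controls, where aligner and exposure cannot be told apart; its difference between the dilutions had an interval of -0.72 to 0.69 around a log2 fold change of -0.01. Adherens junction and desmosome genes were more often lower, 10 against 5 of 18, with a median of -0.23. For 15 of the 18 the interval lay within 1.5-fold, and only 1 was lower by at least 2-fold. NECTIN1, a nectin that starts cell contacts, was at 23.4, 27.6, 34.0, 28.2 and 29.1 CPM at 1:10000 and 108, 99.7, 101, 111 and 102 CPM at 1:40000 (log2 fold change -1.88 ± 0.08, adjusted p = 3.78e-12), and CDH1, E-cadherin, differed by -0.45 ± 0.06.

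Proliferation and stem cell genes that passed the test were mostly lower. DNA replication genes gave 17 lower and 2 higher of 28, with a median of -0.22, and PCNA, the polymerase clamp, was at 77.3 ± 7.43 against 149.6 ± 23.3 CPM (log2 fold change -0.95 ± 0.10), MCM3, a helicase subunit, at 116 ± 5.45 against 191 ± 22.1 CPM (log2 fold change -0.72 ± 0.07) and POLE, a replicative polymerase, at 41.1 ± 5.65 against 74.0 ± 7.55 CPM (log2 fold change -0.86 ± 0.09). Mitosis genes gave 9 lower, 2 higher and 10 not called of 21, with a median of -0.09. The lower share was 42.9%, against 30.1% of all tested genes. Intervals lay within 1.5-fold for 16 of these 21 genes and for 18 of the 28 DNA replication genes. MKI67, the proliferation antigen Ki-67, was at 72.3, 62.6, 75.9, 78.2 and 70.3 CPM at 1:10000 and 220.1, 193, 176, 201 and 179 CPM at 1:40000 (log2 fold change -1.43 ± 0.08, adjusted p = 2.49e-11) and CENPF, a kinetochore protein, at 68.3 ± 3.55 against 149 ± 10.1 CPM (log2 fold change -1.12 ± 0.07), whereas CDC20, the activator of anaphase, was at 157 ± 7.37 against 125 ± 10.5 CPM (log2 fold change 0.32 ± 0.07). Stem cell and Wnt targets gave 11 lower and 2 higher of 18, with a median of -0.63. EPHB2, a crypt receptor, was at 26.2 ± 2.49 against 71.9 ± 5.71 CPM (log2 fold change -1.46 ± 0.08), LGR5, the stem cell receptor, at 2.11 ± 0.953 against 6.04 ± 2.24 CPM (log2 fold change -1.5 ± 0.34) and LGR4 at 54.4 ± 2.91 against 89.8 ± 5.30 CPM (log2 fold change -0.72 ± 0.07). MYC, one of the 2 exceptions, was at 178 ± 23.1 against 87.0 ± 11.9 CPM (log2 fold change 1.01 ± 0.10).

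Growth arrest and death receptor genes gave 14 higher and 4 lower of 22, with a median of 0.45. GADD45A and GADD45B, stress-induced growth arrest proteins, were at 89.0 ± 13.3 against 27.1 ± 2.87 CPM (log2 fold change 1.74 ± 0.10) and 26.8 ± 3.46 against 7.71 ± 2.29 CPM (log2 fold change 1.78 ± 0.18). TNFRSF12A, the receptor of the cytokine TWEAK, was at 155 ± 9.83 against 59.5 ± 8.98 CPM (log2 fold change 1.36 ± 0.08). BCL2L1, which opposes apoptosis, was higher at 1246 ± 113 against 574 ± 60.7 CPM (log2 fold change 1.12 ± 0.08), and BMF, which promotes it, was lower at 29.1 ± 4.58 against 82.0 ± 8.90 CPM (log2 fold change -1.51 ± 0.10). Of the ligands for the lymphocyte receptor NKG2D, ULBP2 was higher at 18.1 ± 2.41 against 9.76 ± 1.85 CPM (log2 fold change 0.88 ± 0.13) and ULBP1 and ULBP3 were lower, by -0.50 and -0.80.

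Mitochondrially encoded messengers were higher in 12 of 13 cases, with a median of 1.07 and none lower (0 at an unadjusted p under 0.05, 0 by DESeq2). Without replicate 1 of 1:40000, 12 were higher and 1 lower. MT-CO1, a subunit of cytochrome oxidase, was at 9819, 12481, 10267, 9435 and 10623 CPM at 1:10000 and 7288, 5950.1, 3706, 3850.2 and 4229 CPM at 1:40000 (log2 fold change 1.07 ± 0.19, adjusted p = 9.56e-04), and at 1:40000 replicates 1 and 2 were above replicates 3 to 5. MT-ND4, a complex I subunit, had a log2 fold change of 1.49 over all 10 libraries, 1.04 within replicates 1 and 2 and 2 within replicates 3 to 5. The mitochondrial ribosomal RNA MT-RNR2, which carries no long poly(A) tail, was at 30956 ± 3827 against 7095 ± 2478 CPM (log2 fold change 2.13 ± 0.22); its part in the messengers' difference was not tested. Nuclear-encoded respiratory chain genes gave 3 higher and 5 lower of 28, 4 and 4 under relative-log scaling and DESeq2, 5 and 4 with all 15 libraries in the fit and 7 and 3 within replicates 1 and 2, and 26 of their intervals lay within 1.5-fold. Cytosolic ribosomal protein genes gave 25 higher and 1 lower of 30, yet all 30 intervals lay within 1.5-fold, with a median of 0.25. RPS13 was at a log2 fold change of 0.42 ± 0.07. Mitochondrial ribosomal protein genes gave 11 higher and 4 lower of 21, with MRPS30 at 0.55 and MRPL47 at 0.46.

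The last question was which genes answered only to the stronger dilution and which were at like levels under both. Each dilution was fitted against control over the shared identifiers, with at least 2-fold and a call required, and the result was joined with the comparison between the dilutions for 12705 genes. Against control, 3072 of 13158 tested genes (23.3%) passed this rule at 1:10000 and 1362 (10.4%) at 1:40000. The 2 comparisons share the control libraries, so no agreement between them is read here, and the controls' aligner cannot be told apart from exposure.

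Most of the 12705 joined genes met no class rule and stayed unclassified. Of these, 5777 lay above control at 1:10000 and 5924 below, MT2A and MT1X being among the unclassified genes. Most classified genes belonged to the stronger dilution alone or were graded. A gene counted as stronger only when it passed at 1:10000, was called in the same direction between the dilutions, and had a 95% interval at 1:40000 within 1.5-fold of control. This held for 464 genes, 189 higher and 275 lower. Graded genes passed at both in the same direction and were called between the dilutions with 1:10000 further from control. They numbered 241 higher and 82 lower. Genes similar at both passed at both with an interval between the dilutions inside 1.5-fold, which took precedence over a graded call, and numbered 174 higher and 33 lower. With replicates 3 to 5 alone the last count was 20. The classes grow or shrink with the margin, and with the narrowest margin tried only 28 higher and 51 lower genes were stronger only and 23 and 3 similar at both.

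Genes of the stronger dilution alone included many already described. The higher ones with the largest difference above 5 CPM were RASGRP3, an activator of Ras, at 33.5 ± 4.42 against 7.78 ± 1.19 CPM and at 7.37 ± 1.67 in controls, OSGIN1, HBEGF and HK2. HBEGF was at 10.8 ± 1.78 CPM in controls, and its log2 difference from control was -0.22 ± 0.17 at 1:40000 and 1.62 ± 0.17 at 1:10000. SLC3A2, SLC38A2, XBP1, DNAJB9, BCL2L1, NFKBIA, IRF1, ELF3 and TXNRD1 were in the same class. The lower ones were led by NYNRIN, ST3GAL1, LDHD and FABP1. FABP1 stood at 91.5 ± 11.4 CPM in controls, which put the weaker dilution at 0.04 ± 0.11 and the stronger at -2.26 ± 0.13 from control. CDX2, HNF4A, DGAT2, NHERF1, ESPN, NAGLU, MYLK, NECTIN1, PCNA and EPHB2 were further members. All 189 higher genes, and 97.1% of the 275 lower, had dilution groups that did not overlap, which the rule itself favours.

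Graded genes included PTGS2, NGFR, ANKRD1, DUSP5 and ATF3 among the higher. PTGS2 was 25.4 ± 6.77 CPM in controls, with 1.34 ± 0.15 at 1:40000 and 4.69 ± 0.14 at 1:10000. CYP1A1 was 9.03 ± 1.18 CPM in controls, with 3.69 ± 0.24 and 5.20 ± 0.24 in the same order. TRIB3, DDIT3, MTHFD2 and CTH were graded too, whereas GDF15 and PPP1R15A fell short of 2-fold at the weaker dilution, at 0.99 ± 0.16 and 0.58 ± 0.16. Graded lower genes were led by IHH, TENT5C, FGA and LSS. TENT5C, which lengthens poly(A) tails, was at 2.78 ± 0.592 against 11 ± 2.20 CPM, and at 39.1 ± 3.32 CPM in controls. LGR5, APOA4 and AQP3 were also graded.

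Of the 39 integrated stress response genes, 13 were similar at both, all higher than control, 5 graded and 3 stronger only. The remaining 18 were unclassified. Over all 12705 joined genes, 174 were similar at both and higher, 241 graded and higher and 189 stronger only and higher. The list was chosen with earlier results of these data known. CHAC1 was 4.76 ± 1.3 CPM in controls, with log2 differences from control of 1.91 ± 0.16 at 1:40000 and 2.03 ± 0.16 at 1:10000. SLC7A11 gave 2.38 ± 0.10 and 2.21 ± 0.10, DDIT4 2.62 ± 0.14 and 2.95 ± 0.14, and STC2 1.52 ± 0.06 and 1.321 ± 0.06. No other list held more than 1 gene of this class in either direction. Outside the list, KIF1A, a kinesin motor, was at 26.2 ± 3.19 against 19.8 ± 2.20 CPM, and at 2.91 ± 1.34 CPM in controls. Pseudogenes made up 60.3% of the higher genes of this class and 32.8% of the graded higher ones, against 1.06% and 1.82% of the stronger-only genes, and their part in these counts was not tested. Restricted to protein-coding genes without a pseudogene or an exon overlap, 36 higher and 15 lower genes were similar at both, 82 and 39 graded and 80 and 126 stronger only.

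Genes similar at both and lower than control were few. DDX52, an RNA helicase, AGPAT1, an acyltransferase of phospholipid synthesis, SSBP1, which binds mitochondrial DNA, and CLPTM1L differed from control by -2.30, -2.23, -1.87 and -1.85 at 1:10000. B2M, the light chain of class I histocompatibility molecules, was at 28.6 ± 1.69 against 24.5 ± 1.61 CPM, and at 76.3 ± 8.18 CPM in controls, and its call between the dilutions was lost without replicate 1 or 2 of 1:10000 or replicate 1 of 1:40000.

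**Figure D5:**
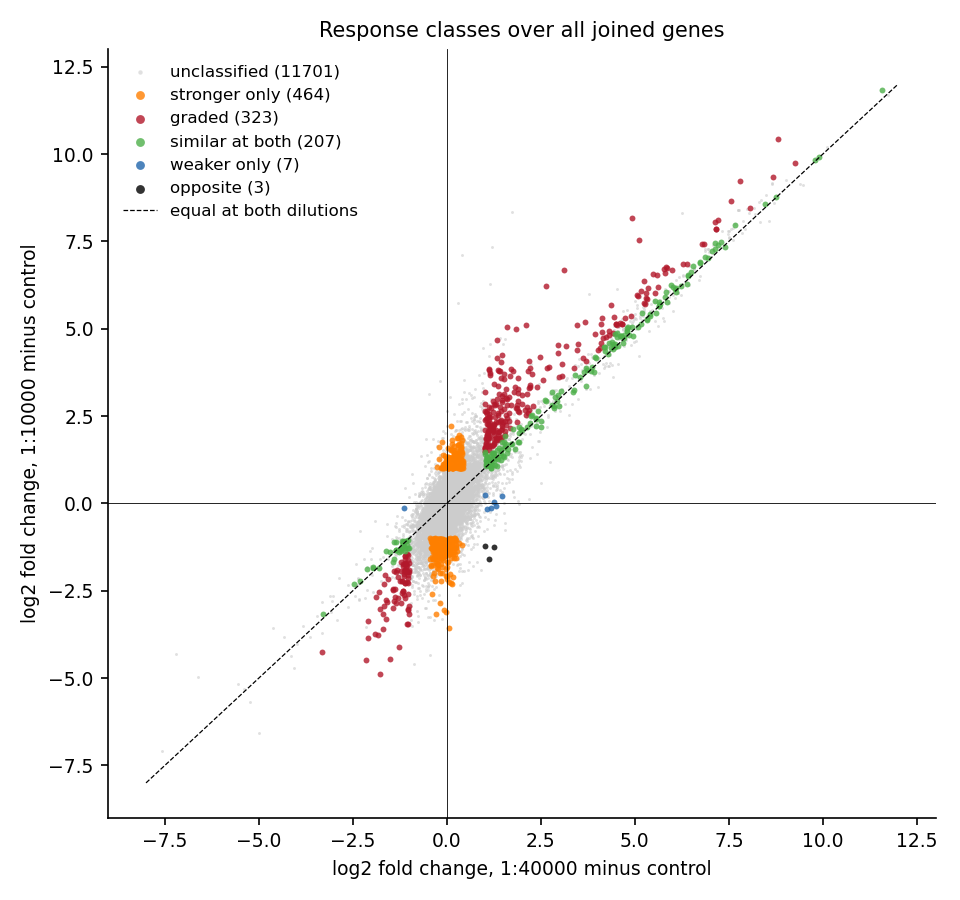
Each point is 1 of 12705 genes, with its log2 fold change from control at 1:40000 on the x axis and at 1:10000 on the y axis, and the dashed line marks equal values; both axes use the same control libraries, which carry a different aligner. Stronger-only genes (464) stand above and below the origin, graded genes (323) lie beyond the line away from it and similar genes (207) lie along it.

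Fewer genes lay further from control at the weaker dilution. Of 953 genes that passed at both dilutions in the same direction, 378 were called between the dilutions, 343 of them further from control at 1:10000 and 35 at 1:40000. Of the 35, 27 have no class and 8, SLC7A11 and STC2 among them, counted as similar at both. By the stronger-only rule with the dilutions exchanged, 7 genes were weaker only, 6 higher and 1 lower than control. That rule also required an interval at 1:10000 within 1.5-fold of control. Genes that passed at 1:40000 alone without that bound are therefore not in this number. It became 49 with a margin of 2-fold and 141 with a minimum of 1.5-fold against control. The 4 higher ones with the largest difference between the dilutions above 5 CPM were PTPRS, a receptor phosphatase, B4GALNT4, a glycosyltransferase, ASIC1, a proton-gated channel, and RNF157, a ubiquitin ligase. ASIC1 was at 12, 16.5, 10.3, 11.5 and 13.1 CPM at 1:10000 and 37.4, 32.1, 26.2, 28.1 and 28.5 CPM at 1:40000, against 11.2 ± 0.979 CPM in controls (log2 fold change -1.29 ± 0.13, adjusted p = 8.66e-08). RNF157 was at 15.2, 18.2, 23.1, 22 and 20.4 CPM at 1:10000 and 48.7, 49.9, 45.1, 47.0 and 45.8 CPM at 1:40000, against 22.7 ± 1.93 (log2 fold change -1.25 ± 0.10, adjusted p = 4.98e-09). In 3 genes the dilutions lay on opposite sides of control by 2-fold. SLC38A3, a glutamine carrier, was at 17.1, 24.2, 13.5, 15.9 and 19.2 CPM at 1:10000 and 105, 109, 59.6, 76.8 and 76.0 CPM at 1:40000, against 42.4 ± 9.19 CPM in controls, so that it was higher at the weaker and lower at the stronger dilution. The other 2, LTBP2 and DAPK2, lay below 5 CPM. This class held no gene without replicates 1 and 2 of 1:40000, and 1 to 5 genes when single libraries were left out, falling to 1 without replicate 1 of 1:40000 or any of the control replicates 1, 3, 4 and 5, and rising to 5 without replicate 3 of 1:40000.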

How the data were processed

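RNA was selected with poly(A) and made into TruSeq libraries, per the labels' protocols. The deposited files hold whole-number read counts per Ensembl gene identifier, raw and not normalised. Per the file headers, the 10 rinse aid files were aligned with HISAT2 and the 5 control files with RNA STAR. Of tools and builds, GRCh38 (hg38), DESeq2 1.32.0, STAR 2.7.9a, featureCounts and cutadapt stand in the submitters' processing notes. The annotation release and the strand setting are not given in the sources used here, so overlapping and antisense genes cannot be separated.

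Counts of the 10 rinse aid libraries were joined by identifier and fitted with edgeR 4.0.16 (R 4.3.3; TMM scaling, its default filter by group, quasi-likelihood test, robust). Genes were called at a Benjamini-Hochberg adjusted p under 0.05. CPM values of the rinse aid libraries carry the same scaling. A second fit of all 15 libraries over the 60601 shared identifiers gave the comparisons with control. The CPM values of the controls come from that second fit and its own scaling. Ratios of printed control and rinse aid CPM are therefore not the fitted differences. DESeq2 1.42.0, other scalings and filters, left-out libraries and other class limits were tried as alternatives. Total counts bound the precision of low genes, most of all in replicate 2 of 1:40000.

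The members and the 54 gene lists (46 of functions, 8 of cell markers) were chosen with earlier results of these data known. Between the dilutions, the named genes were the 12 at each end of the ranking by log2 fold change, out of those called, at a mean of at least 5 CPM and with groups that did not overlap. In each list the rule took the 2 members with the lowest adjusted p among those called in its main direction; for tight junctions and the integrated stress response any called member could be named. For each class the 4 largest were named in each direction. Pseudogenes and near-identical genes were left out, except where the text calls a count uncertain. Some genes that the rule names are not reported here. All other genes in the text were chosen after their values were seen. Of the 204 genes in the text with a value per library, 81 share exon sequence positions with another gene and 31 have annotated pseudogenes, so their counts carry that uncertainty. Gene positions are those of GENCODE 29, and 58342 of 61544 rows matched it.

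The deviations of same-numbered libraries from their group means correlated at 0.238, 0.271, 0.291, 0.183 and 0.231 across genes, each over the limit of 0.1 used for pairing. Differently numbered libraries correlated at 0.0929 to 0.268 within replicates 1 and 2 or within 3 to 5, and at -0.321 to -0.151 across these sets, so the numbers may mark 2 sets rather than pairs. The fit with the replicate block is an alternative.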

Additional observations from a re-analysis of the deposited data

Results flagged for a closer look

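A sample was set apart where its gap to the nearest of the other 4 exceeded 0.71 of the group's range (Dixon's limit for 5). This held in 32 of 416 groups of 5 (7.69%), and chance gives about 1 in 20. All are given as CPM with the other 4 libraries in parentheses.

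Replicate 1 of 1:40000 was the library with the largest total, 172092447 counts against 2551839 to 25956150 in the others. It was highest for PATJ at 28.1 (21.9 to 23.2), TJP3 at 108.6 (68.2 to 79.3), AMOTL1 at 302 (236 to 250.1), FOS at 6.21 (2.32 to 3.17), CCN2 at 21.1 (10.4 to 12.5) and EGFR at 117 (98.6 to 102.9). It was lowest for ATP1B1 at 284 (350.4 to 369.5), MGST3 at 58.4 (74.4 to 80.5) and PSMC6 at 77.9 (90.3 to 94.7). Replicate 2 of 1:40000 was lowest for TGM2 at 116 (140.1 to 148.2) and HK2 at 41.6 (51.8 to 55.5). Replicate 4 of 1:40000 was highest for DDX52 at 13.9 (8.24 to 9.39), and replicate 5 for MT1E at 0.404 (0 to 0.0990).

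At 1:10000, replicate 1 was highest for DNAJB9 at 147 (118 to 126), PARD6B at 432 (294 to 328), OCLN at 21.96 (12.6 to 13.1), HSPA5 at 1540 (1152 to 1261) and HSPA6 at 17.5 (3.17 to 5.76), and lowest for OAS3 at 29.9 (38.4 to 40.4). Replicate 2 had the highest share of mitochondrial ribosomal RNA, 3.83% against 3.11 to 3.29% in the others. It was also highest for CXCL3 at 5.55 (3.44 to 3.99), TNFRSF12A at 172 (148 to 154), SLC1A5 at 671 (559 to 579) and MARS1 at 482 (400.4 to 423), and lowest for ADM at 31.1 (42.9 to 45.3) and SLC30A1 at 94.2 (120.4 to 128). Replicate 3 was lowest for BST2 at 42.7 (53.4 to 55.9) and highest for MAGI3 at 25.0 (19.3 to 20.9) and CYP1B1 at 9.08 (5.75 to 6.34). Replicate 4 was highest for SPTLC3 at 6.94 (4.36 to 5.03) and lowest for PSPH at 73.5 (89.5 to 94.2).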

How the results depend on the processing

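Under each alternative run, 191 to 204 of the 204 genes in the text kept their direction and their side of the threshold, the lowest number with a minimum of 5 CPM, under which the others were not tested. Depth limited the low genes: the 1690 unresolved genes had a median of 2.44 CPM, and replicate 2 of 1:40000 held 2551839 counts. The number of called genes stayed within 1.5 times of 7326 under every alternative run. With the replicate block 7838 genes were called, 7278 of them in both fits, and no count moved by over 1.5 times. Genes called with at least 2-fold numbered 410 higher and 705 lower. The higher count became 668 by DESeq2, the pair 853 and 1108 without a filter on low counts, and 261 and 410 with a minimum of 5 CPM, where fewer genes were tested. For the other scalings the cause was not tested. List medians depended on the filter on low counts. Over the alternatives they ranged from 0.37 to 2.01 for metallothioneins and zinc transport, 0.52 to 2.21 for keratins, 0.71 to 1.62 for cytokines and chemokines, -1.06 to -0.08 for intestinal identity factors and -1.20 to -0.45 for lipoprotein assembly.

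Class sizes depended on their limits. With the narrower margin there were 28 higher and 51 lower stronger-only genes, 23 and 3 similar at both, and 0 weaker only. With the wider margin of 2-fold these were 509 and 739, 502 and 92, and 49. With a minimum of 1.5-fold against control they were 849 and 1003, 394 and 186, and 141, with 430 and 318 graded and 26 opposite. Among protein-coding genes without a pseudogene or overlap (chosen after seeing the data, fewer genes) they were 80 and 126, 36 and 15, and 4, with 82 and 39 graded and 1 opposite. The 3 opposite genes became 0 without replicates 1 and 2 of 1:40000, 1 within replicates 3 to 5 (20 similar and lower there), and 1 to 5 on leaving out single libraries.

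Among genes that were not called, TJP1 turned from -0.013 to 0.0098 by DESeq2, 0.0089 by relative-log scaling, 0.082 with all 15 libraries, 0.0021 without mitochondrial genes and 0.14 within replicates 1 and 2, and ranged from -0.32 to 0.28 on leaving out single libraries. AGPAT1 turned to -0.067 within replicates 1 and 2, with a range of -0.025 to 0.13 on leaving out single libraries. DDX52 turned to -0.14 within replicates 3 to 5, with a range of -0.019 to 0.28 on leaving out single libraries. CLPTM1L turned to -0.012 without replicates 1 and 2 of 1:40000 and -0.038 within replicates 3 to 5. The cause was not tested.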
